A study of Mus musculus with 61 samples.

Results

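The genes described here encode the proteinaceous axis, the synaptonemal complex and the meiosis-specific cohesin subunits of meiotic chromosomes. A list of 10 genes, chosen by name, was taken from 23927 gene rows, and all 10 had a row. They were Sycp2, Sycp3, Hormad1 and Hormad2 of the axis, Sycp1, Syce1 and Syce2 of the synaptonemal complex, and Rec8, Stag3 and Smc1b of cohesin. Their transcripts were followed in single oocytes and single granulosa cells from ovaries of wild-type CD-1 mice, an outbred stock, at postnatal day 5. The mice had received an intraperitoneal injection of vehicle or of doxorubicin, a DNA-damaging anti-cancer drug, 6 hours before. The labels give the dose as 10 mg/kb; that unit describes no dose, and the amount is uncertain. The cells were 16 control oocytes, 16 doxorubicin oocytes, 16 control granulosa cells and 13 doxorubicin granulosa cells. The series as a whole concerns JNK signalling in oocytes and loss of ovarian function under DNA-damaging therapy.

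The labels do not tie cells to animals, so a group stands for 1 sample: replicates were lacking and no difference was tested. All cells carried 1 batch label. Totals ran from 6834594 to 31262609 counts per cell. Levels are in CPM, a gene's count per 1000000 counts of its library. A group's CPM is its summed counts over its summed total, and ratios are log2 ratios of group CPM. Intervals in parentheses are 95% counting intervals. They leave out the spread between cells and animals, and PCR reads without molecular identifiers are not independent molecules. The summed oocyte markers, such as zona pellucida genes, exceeded the summed granulosa markers in 32 of 32 oocytes. They also exceeded them in 5 of 16 control and 8 of 13 doxorubicin granulosa libraries. These sums are on unlike scales. Median sums were 49030 CPM for oocyte markers across control oocytes and 4405 CPM for granulosa markers across control granulosa cells. A higher oocyte sum in a granulosa library therefore shows oocyte transcripts there but cannot decide whether its label is right. Doxorubicin oocytes 9, 11 and 12 held granulosa markers at 3658, 2891 and 2253 CPM, against a highest value of 801 CPM in control oocytes.

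In meiotic prophase each pair of sister chromatids is held by cohesin and organised as loops along a protein axis. The axes of homologous chromosomes are then joined along their length by the transverse filaments and central element of the synaptonemal complex. In the mouse female this happens in the fetal ovary. Around birth the complex is taken apart and the oocyte arrests at the diplotene (dictyate) stage, where cohesin laid down before birth must keep sister chromatids together until ovulation. The oocytes sampled here were therefore of an age after synapsis, and the question is which of these transcripts were still present, and at what level.

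The bases upstream of the start sites of these genes were searched for the motifs CACGTG, the canonical E-box, and TCCCGC. The canonical E-box is bound by basic helix-loop-helix factors such as MAX, and the site TCCCGC is a core of E2F6-type elements. Both kinds of factor belong to a repressor complex that keeps germline genes silent in somatic cells. RefSeq promoters (GRCm38.p6) were matched for 10 of 10 genes, with 12 start sites. Windows upstream of the start are shown for the best-expressed axis gene, for a gene of the transverse filaments, for Hormad1, with both motifs within 100 bases, and for the best-expressed cohesin subunit. Capitals mark CACGTG and TCCCGC, or its reverse complement GCGGGA, and each sequence runs 5′ to 3′ on the strand of its gene.

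Sycp3, chr10:88459507-88459568, plus strand: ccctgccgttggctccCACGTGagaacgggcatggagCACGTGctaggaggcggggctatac

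Sycp1, chr3:102936101-102936220, minus strand: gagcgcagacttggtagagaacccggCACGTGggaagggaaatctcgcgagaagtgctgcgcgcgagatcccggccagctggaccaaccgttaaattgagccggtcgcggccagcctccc

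Hormad1, chr3:95559577-95559676, plus strand: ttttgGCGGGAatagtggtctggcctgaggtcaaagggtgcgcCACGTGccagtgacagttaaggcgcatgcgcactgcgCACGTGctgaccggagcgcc

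Smc1b, chr15:85131965-85132057, minus strand: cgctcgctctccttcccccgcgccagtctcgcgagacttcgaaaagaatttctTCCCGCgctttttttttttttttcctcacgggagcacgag

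In the 250 bases upstream of a start, CACGTG was found for 5 of 10 genes (Sycp1, Sycp3, Syce2, Hormad1 and Stag3), against 6.02% of 32851 promoters. TCCCGC on either strand was found for 5 of 10 genes (Sycp3, Syce2, Hormad1, Rec8 and Smc1b), against 16.9% of promoters. Sycp3, Syce2 and Hormad1 had both, as did 1.45% of promoters. Sycp2, Syce1 and Hormad2 had neither. The letters did not order the genes by level, since Syce1, with neither motif, was among the most abundant and Hormad1, with both, was among the least. A gene was counted if any of its starts matched, while the background counts single promoters. Annotated exons covered all 250 of these bases for Stag3 and 143 at the Syce2 start with CACGTG. They covered 129 for Rec8 and 137 for Smc1b, and 27 or fewer at the other starts. A match describes the letters only.

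Transcripts of 8 of the 10 genes were found in nearly every oocyte of both groups, while Hormad2 was scattered and Rec8 was nearly absent. With a limit of 5 counts per cell, Sycp1, Sycp2, Sycp3, Syce1, Syce2 and Smc1b were detected in 16 of 16 control and 16 of 16 doxorubicin oocytes. Stag3 was detected in 16 and 14 of 16, Hormad1 in 15 and 14, Hormad2 in 6 and 8, and Rec8 in 1 and 0. The 8 detected genes spanned a wide range of levels, shown in the plot of CPM by library.

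**Figure D1:**
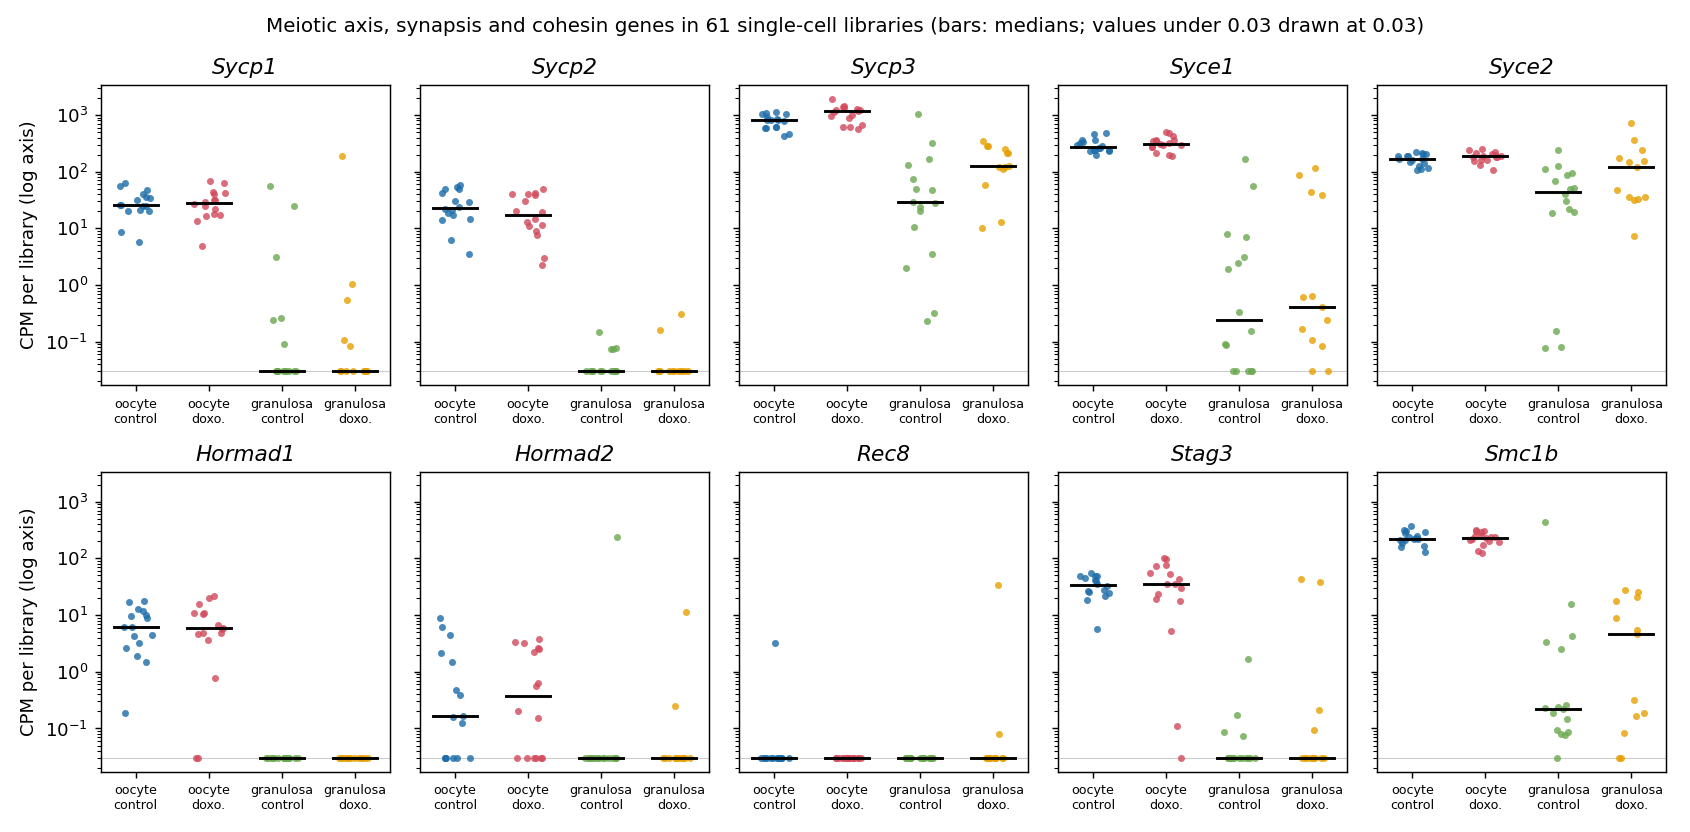
CPM of each gene (log axis) in every library, by group, with black bars for group medians and values under 0.03 drawn at 0.03. Sycp3 lay between 418 and 1948 CPM in all 32 oocytes, while Rec8 was above 0 in 1 oocyte only.

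To compare genes with each other, CPM was divided by the length of the longest annotated transcript. In control oocytes Sycp3 stood at 679 CPM per kb, Syce1 at 200, Syce2 at 102 and Smc1b at 58.2 CPM per kb. Each of these was above the next in 16 of 16 control oocytes and 16 of 16 doxorubicin oocytes. A second tier followed with Sycp1 at 9.76, Stag3 at 7.55, Sycp2 at 5.41 and Hormad1 at 5.30 CPM per kb. Within it the order was loose: Sycp1 was above Stag3 in 11 of 16 control oocytes and in 8 of 16 doxorubicin oocytes, and Sycp2 was above Hormad1 in 10 of 16 control oocytes. Hormad2 had 0.69 and Rec8 0.077 CPM per kb. With the union of exons as length, the order was the same at 10 of 10 places in control oocytes and at 8 of 10 in doxorubicin oocytes, where Sycp1 and Stag3 changed places.

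The axis genes differed widely among themselves. Sycp3, which assembles into the filaments of the axis (chromosome 10, 88459569 to 88473236, plus strand), was at 418 CPM in the lowest, 807 in the median and 1121 in the highest control oocyte. In doxorubicin oocytes these values were 565, 1155 and 1948 CPM. The ranges overlapped: 9 of the 16 treated oocytes exceeded every control, and none was under the lowest control. By group CPM, Sycp3 ranked 95 of 23927 genes in control and 56 in doxorubicin oocytes.

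Sycp2, the partner of SYCP3 in the axis (chromosome 2, 178345293 to 178407685, minus strand), was far lower. It ran from 3.60 through a median of 23.3 to 59.0 CPM in control oocytes, and from 2.29 through 17.0 to 49.2 CPM in doxorubicin oocytes. Per kb, Sycp3 was 125 times Sycp2 in control and 244 times in doxorubicin oocytes. Sycp2l, a paralogue of Sycp2 that is expressed in oocytes, stood at 37.1 CPM per kb in control oocytes. It was above Sycp2 in 16 of 16 control and 16 of 16 doxorubicin oocytes, by 6.85 and 7.69 times at the group level.

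Hormad1 and Hormad2 encode HORMA-domain proteins that mark axes not yet synapsed and are removed on synapsis. Hormad1 (chromosome 3, 95559677 to 95587671, plus strand) ran from 0.19 to 17.8 CPM in control oocytes with a median of 6.17, and from 0 to 21.7 CPM in doxorubicin oocytes with a median of 5.87. It had no count in 2 doxorubicin oocytes. Hormad2 (chromosome 11, 4345814 to 4441105, minus strand) had medians of 0.16 and 0.38 CPM and highest values of 8.85 and 3.82 CPM. Hormad1 was above Hormad2 per kb in 14 of 16 oocytes of each group.

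Of the listed synaptonemal complex genes, Syce1 and Syce2 of the central element were abundant and Sycp1 of the transverse filament was not. Sycp1, the transverse filament (chromosome 3, 102818499 to 102936100, minus strand), ran from 5.76 through 25.8 to 62.9 CPM in control and from 4.97 through 28.1 to 67.5 CPM in doxorubicin oocytes. Syce1, a central element protein (chromosome 7, 140777229 to 140787852, minus strand), ran from 193 through 275 to 484 and from 192 through 313 to 510 CPM. Syce2, another (chromosome 8, 84872111 to 84888221, plus strand), ran from 106 through 165 to 227 and from 109 through 186 to 252 CPM. The groups overlapped for all 3 genes. The proteins of these genes act in one structure with TEX12, SYCE3 and SIX6OS1, whose transcripts were lower per kb than Syce1 and Syce2. Tex12 had 12.8, Syce3 3.63 and 4930447C04Rik (Six6os1) 0.89 CPM per kb in control oocytes, against 9.76 for Sycp1. The high level of Syce1 and Syce2 was thus not shared by these other genes. Syce2 was above Tex12, and Syce1 above Syce3, in 16 of 16 control and 16 of 16 doxorubicin oocytes.

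Cohesin is a ring of SMC1 and SMC3 arms closed by a kleisin, to which a STAG subunit binds. Meiotic cells replace subunits by meiosis-specific forms: SMC1B for SMC1A, REC8 or RAD21L for RAD21, and STAG3 for STAG1 or STAG2. Smc1b (chromosome 15, 85064689 to 85131964, minus strand) ran from 131 through 222 to 368 CPM in control and from 125 through 233 to 315 CPM in doxorubicin oocytes. Per kb it was above Smc1a and above Smc3 in 16 of 16 control and 16 of 16 doxorubicin oocytes. At the group level it was 2.78 times Smc1a in control and 2.32 times in doxorubicin oocytes.

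Stag3 (chromosome 5, 138280240 to 138312393, plus strand) ran from 5.66 through 34.0 to 55.6 CPM in control oocytes and from 0 through 35.0 to 100 CPM in doxorubicin oocytes. The oocyte at 0 was doxorubicin oocyte 4, whose raw data the series text states to be lost. Per kb Stag3 was above Stag1 in 14 of 16 control and 12 of 16 doxorubicin oocytes. It was above Stag2 in 14 of 16 control oocytes and in 8 of 16 doxorubicin oocytes. At the group level it was 1.45 times Stag2 in control and 1.54 times in doxorubicin oocytes.

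The meiotic kleisins were the lowest cohesin subunits in control oocytes. Rec8 (chromosome 14, 55618037 to 55625395, plus strand) had 33 counts in control oocytes, all in control oocyte 9 at 3.20 CPM, and 0 counts in doxorubicin oocytes. For these libraries 0 counts allow a group level of up to 0.021 CPM (exact Poisson, counting error only). Rad21 had 3.62 and Rad21l 0.48 CPM per kb in control oocytes, against 0.077 for Rec8. Rad21 was above Rec8 in 16 of 16 oocytes of each group, and Smc1b was 16.1 times Rad21 at the group level in control oocytes. In GENCODE M21 no annotated exon of another gene overlapped Rec8, and none of its 50-base words occurred in another gene's transcripts. The annotation behind the deposited counts is not known, and the part of read assignment in the Rec8 level was not tested. These are transcript levels and say nothing of the REC8 protein already on the chromosomes.

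**Figure D2:**
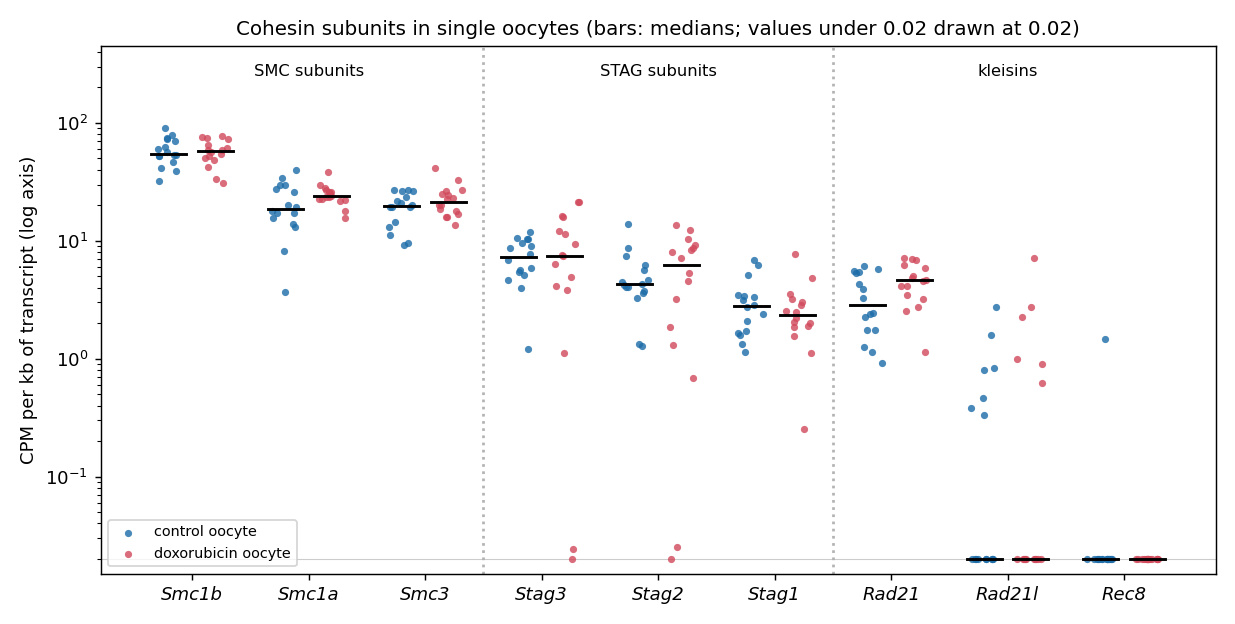
CPM per kb of the longest transcript (log axis) for cohesin subunits in each oocyte, with black bars for group medians and values under 0.02 drawn at 0.02. Smc1b exceeds Smc1a in all 32 oocytes, and Rec8 is above 0 in control oocyte 9 alone.

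Between doxorubicin and control oocytes the genes differed little. A filter of 5 CPM in either group kept 8 of the 10 and left out Hormad2 and Rec8. Of these, 0 were at least 2-fold higher and 0 at least 2-fold lower, against a background of 6.3% higher and 2.45% lower among 11119 genes. At these background shares, no call among 8 genes says nothing particular about them. Their median log2 ratio was 0.04, beside 0.01 over all genes with quartiles of -0.24 and 0.25, with 4 genes above 0 and 4 below.

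Sycp3 had the highest ratio, 0.41 (0.40 to 0.42), or 1.33-fold, and 16.4% of all genes were as high. Leaving out each oocyte in turn gave 0.35 to 0.47. Doxorubicin oocyte 9, with the most granulosa markers, also had the highest Sycp3. Among oocytes with granulosa markers under 200 CPM, which were 10 control and 11 doxorubicin, the ratio was 0.52, and 5 of 11 lay above the highest control.

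Sycp2 had the lowest ratio, -0.55 (-0.61 to -0.49), and 8.81% of all genes were as low. No doxorubicin oocyte was above the highest control and 2 were below the lowest. Control oocyte 16, the deepest library, moved it most: without it the ratio was -0.38. With each cell thinned to 5000000 counts it was -0.34. Its paralogue Sycp2l went the same way, with 98.0 CPM in controls against 75.3 CPM after the drug, a ratio of -0.38 (-0.41 to -0.35).

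The other ratios were smaller. Stag3, just above the upper quartile of all genes, had 0.26 (0.21 to 0.31), Syce1 0.16 (0.14 to 0.17) and Syce2 0.10 (0.07 to 0.12), all above 0 with any 1 oocyte left out. Stag3 spread both ways: 5 doxorubicin oocytes exceeded every control and 3 were under every control, and from the cells' medians its ratio was 0.04. Smc1b had -0.02 (-0.04 to 0.00) and Hormad1 -0.04 (-0.15 to 0.06), and these intervals span 0. Sycp1 had -0.11 (-0.16 to -0.06), which became 0.15 without control oocyte 16, the source of 29.98% of the control counts. Hormad2, below the filter, had 266 counts in control and 211 in doxorubicin oocytes.

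**Figure D3:**
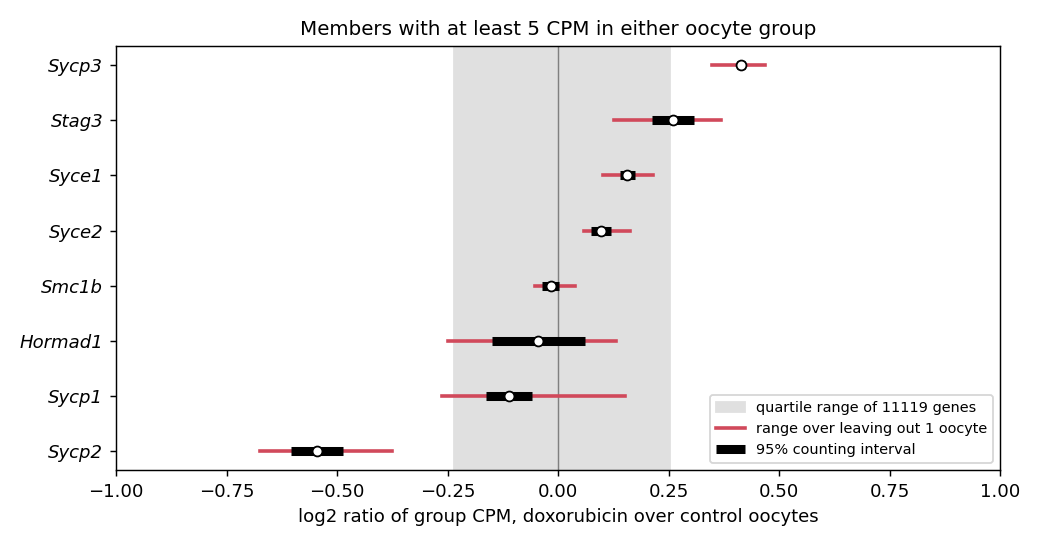
Log2 ratio of group CPM, doxorubicin over control oocytes, for the 8 genes past the filter, with counting intervals (black), the range over leaving out each oocyte (red) and the quartiles of all genes (grey). Sycp3 at 0.41 and Sycp2 at -0.55 lie outside the quartiles with any oocyte left out.

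Reads of Sycp3 carry a further limit. Its exons share 660 bases, or 52.2% of their length, with exons of Chpt1 on the opposite strand. The kit named in the labels does not mark strand, so reads of these bases cannot be told apart. Chpt1 itself had 21.99 CPM in control oocytes and 20.02 CPM after doxorubicin, a log2 ratio of -0.14 (-0.20 to -0.07) that became 0.09 without control oocyte 3. Its part in the Sycp3 ratio was not tested. For Hormad1, 27.2% of its 50-base words also occur in Gm15529 and Gm7167, and for Sycp1 3.69% occur in Sycp1-ps1. These shares are not sizes of error, and the part of the shared words in the levels was not tested.

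In control oocytes against control granulosa cells the filter kept 9 of the 10 genes, and Rec8 was left out. Of these, 8 were at least 2-fold higher in oocytes and 1 was lower, against 29% higher and 31.3% lower among 12373 genes. Genes that passed only through their oocyte level had to differ, so the count is a description. The median log2 ratio was 3.05, beside -0.03 over all genes.

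Sycp2, Syce1, Hormad1 and Stag3 were higher in 16 of 16 control oocytes than in any control granulosa library. Sycp2 had 4 counts in all control granulosa libraries together, a log2 ratio of 10.4 (9.08 to 12.3). Hormad1 had 0 counts there, and against a floor of 3 counts over the group its log2 ratio was 8.91, with a lower counting limit of 8.61. Stag3 had a ratio of 7.93, Syce1 4.58, Sycp1 3.05, Smc1b 3.005, Sycp3 2.79 and Syce2 1.601.

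Sycp3 and Syce2 were found in most granulosa libraries of both groups. Sycp3 was detected in 14 of 16 control and 13 of 13 doxorubicin granulosa libraries, with medians of 28.96 and 127 CPM. Syce2 was detected in 13 of 16 and 13 of 13, with medians of 44.3 and 121 CPM. Syce1 was detected in 7 of 16 and 7 of 13, and Smc1b in 5 of 16 and 7 of 13. Sycp2 had medians of 0 in both groups, with 4 and 5 counts in total, and Hormad1 had no count in any of the 29 libraries.

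Oocyte markers were set beside these levels. Their sum had a median of 1992 CPM in control and 10990 CPM in doxorubicin granulosa libraries, against 49030 and 36891 CPM in the oocyte groups. Of the 19 oocyte markers, 15 and 17 were at 5 CPM or more in the granulosa groups, and Oosp1 was at 0 in the control group. Over the 13 doxorubicin granulosa libraries, Spearman's rho between the marker sum and a gene was 0.94 for Sycp3 (Pearson's r 0.92) and 0.92 for Syce2 (r 0.87). It was 0.32 for Syce1 (r 0.37) and 0.43 for Smc1b (r 0.36). Without the 2 libraries farthest from the median sum, rho was 0.91 for Sycp3 and 0.88 for Syce2. Over the 16 control granulosa libraries rho was 0.73 for Sycp3 and 0.27 for Syce2, and 0.60 and -0.03 without the 2 farthest, so the relation of Syce2 in controls rests on those 2. In these relations all points share 1 batch label, and both measures are shares of the same total.

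Per 1000 CPM of oocyte markers, the genes parted. For Sycp3 the medians were 16.8 and 27.7 CPM in the control and doxorubicin oocytes, and 16.6 and 11.5 in the granulosa groups. Smc1b had 4.64 and 5.67 in the oocyte groups but 0.15 and 0.25 in the granulosa groups. Syce1 had 5.09 and 9.03 against 0.18 and 0.10. Syce2 went the other way, with 3.68 and 5.39 in oocytes against 16.1 and 10.98 in granulosa libraries, and control granulosa cell 5 held 124 CPM of Syce2 with 498 CPM of oocyte markers. Relative to oocyte markers, the granulosa medians were thus close to those of oocytes for Sycp3 in controls only, lower for Smc1b and Syce1, and higher for Syce2. Single libraries spread widely around the Sycp3 medians, from 0.11 to 74.6 in control granulosa cells and from 6.55 to 39.6 in control oocytes. The part of the oocyte markers' source in the granulosa levels was not tested. In the 7 control and 6 doxorubicin granulosa libraries with under 5 counts of Chpt1, Sycp3 ran from 0.23 through a median of 20.05 to 170 CPM and from 114 through 125 to 286 CPM.

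**Figure D4:**
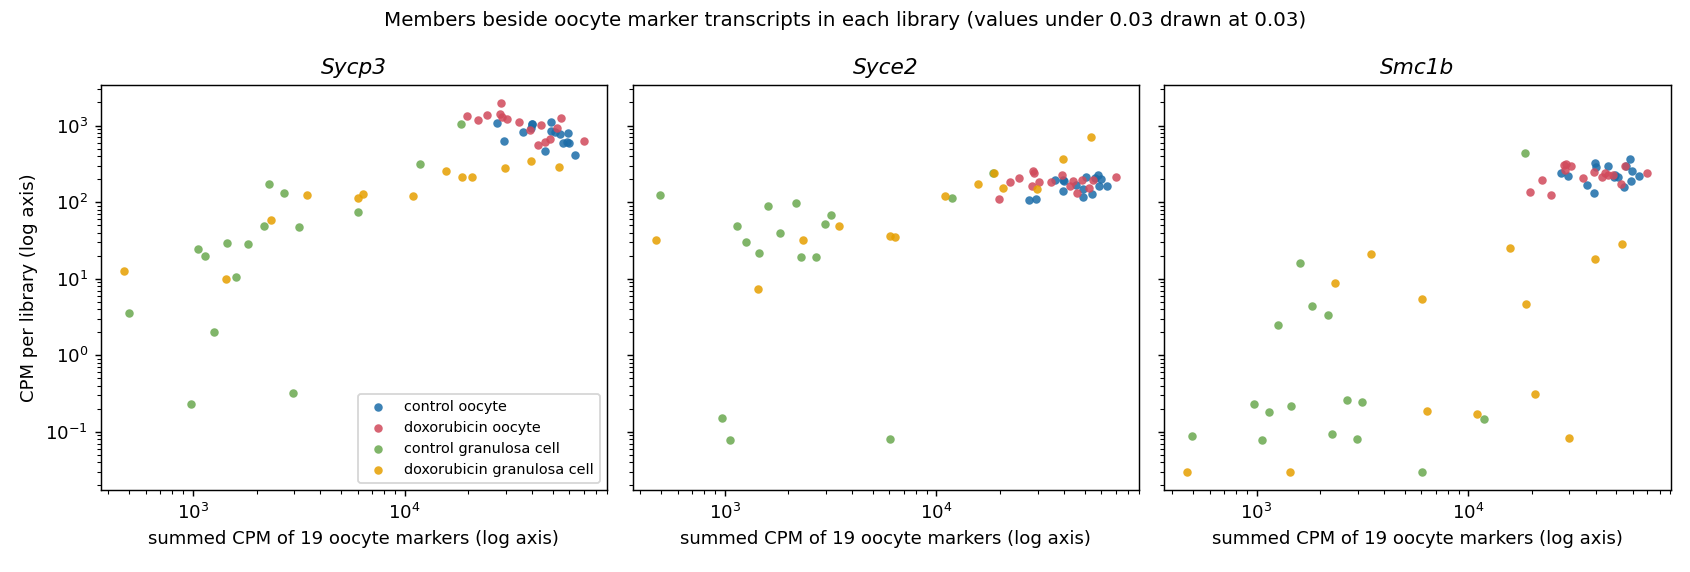
CPM of Sycp3, Syce2 and Smc1b against the summed CPM of 19 oocyte markers in each library (both axes log, values under 0.03 drawn at 0.03), coloured by group. Sycp3 in doxorubicin granulosa libraries rises with the marker sum (rho 0.94), and control granulosa cell 8 stands above every oocyte for Smc1b at 440 CPM.

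Single granulosa libraries decided several values. Control granulosa cell 8 had oocyte markers at 18433 CPM, Sycp3 at 1038, Smc1b at 440 and Hormad2 at 235 CPM, which was every Hormad2 count of its group and above any oocyte. It had no count of Sycp1, Sycp2, Hormad1 or Stag3. Without it the oocyte over granulosa ratio became 6.25 instead of -3.45 for Hormad2, 7.07 instead of 3.005 for Smc1b and 3.92 instead of 2.79 for Sycp3, and the median of the list became 5.78. Without control granulosa cell 1, the source of 70.5% of the Sycp1 counts in that group, Sycp1 became 4.74. Stag3 became 10.5 without control granulosa cell 6, the source of 84.6% of its counts there, and Syce1 became 5.63 without control granulosa cell 14.

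Apart from control oocyte 9 at 3.20 CPM, doxorubicin granulosa cell 13 is the one library with more than a trace of Rec8. It held 34.3 CPM, or 99.8% of the 409 counts of its group, together with Stag3 at 43.1 CPM, no Smc1b and the lowest oocyte marker sum of its group, 472 CPM. Doxorubicin granulosa cell 15 held Stag3 at 39.0 CPM. Stromal markers summed to 7961 and 3461 CPM in these 2 libraries, the highest of the group, against a median of 688 CPM. Doxorubicin granulosa cell 15 also had the highest blood and immune markers, at 34796 CPM. The part of these cells in the result was not tested.

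Between doxorubicin and control granulosa cells, 7 of the 10 genes passed the filter, with 3 at least 2-fold higher and 2 lower, against 20.6% higher and 20% lower among 12194 genes. The genes called higher were Sycp1 at 1.66, Syce2 at 1.43 and Stag3 at 5.43, and those called lower were Hormad2 at -4.05 and Smc1b at -1.78. Sycp3, at 0.52, and Syce1, at 0.83, were not called. Single libraries moved these ratios and the tally. Sycp3 was 1.64 without control granulosa cell 8, and Syce1 was 1.88 without control granulosa cell 14 and 0.15 without doxorubicin granulosa cell 7. The call turned with 1 library for Sycp1 (-4.83 without doxorubicin granulosa cell 1), Hormad2 (5.65 without control granulosa cell 8) and Smc1b (2.29 without the same cell). Stag3 was 4.32 without doxorubicin granulosa cell 13 and 8.02 without control granulosa cell 6. Of its 891 counts after the drug, 513 lay in doxorubicin granulosa cell 13 and 375 in doxorubicin granulosa cell 15. Leaving out 1 cell cannot show a dependence on both, and under other settings the Stag3 ratio was as low as 0. Syce2 was 0.99 without doxorubicin granulosa cell 1, which held 711 CPM of it and the highest oocyte marker sum, 53376 CPM. Among libraries whose granulosa markers exceeded their oocyte markers, 5 doxorubicin and 11 control, Syce2 was at -0.63, Sycp1 at -4.55 and Syce1 at -0.05.

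Across the oocytes the genes did not vary as one group. Over 32 oocytes, with log2(CPM + 1) centred within treatment, the 28 pairs of the 8 detected genes had Spearman's rho from -0.39 to 0.66 with a median of 0.08. Only Sycp1 with Hormad1, at 0.66, and Sycp3 with Hormad1, at 0.53, reached 0.5. The lowest pair was Syce1 with Syce2, at -0.39, although both encode central element proteins. Sycp2 and Sycp3, partners in the axis, had 0.09. All points share the batch label, both genes of a pair are read in the same library, and genes at few counts carry more counting noise.

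**Figure D5:**
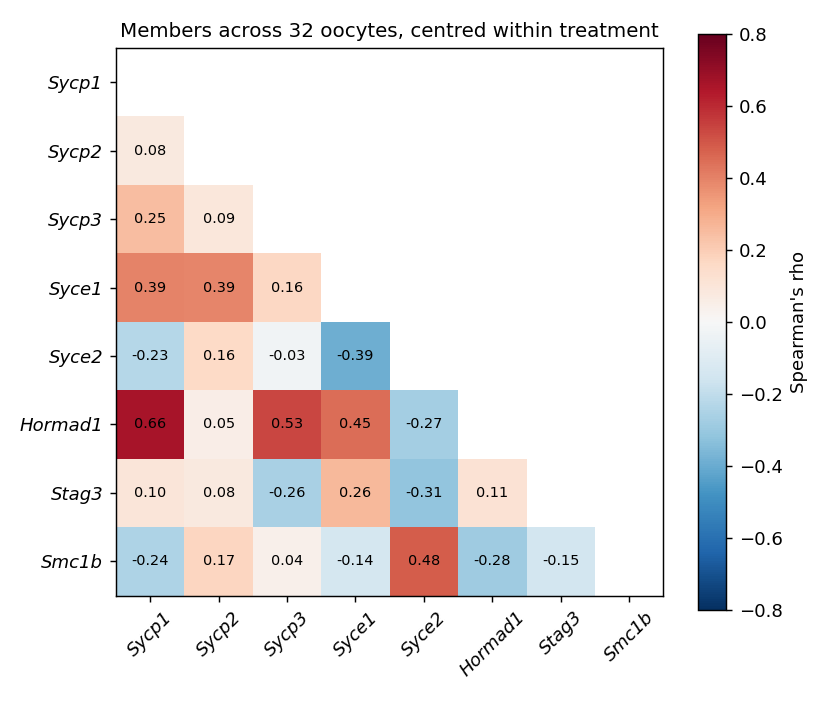
Spearman's rho of log2(CPM + 1) between genes over 32 oocytes, centred within treatment (colour and number). Sycp1 with Hormad1 at 0.66 is the highest and Syce1 with Syce2 at -0.39 the lowest of 28 pairs.

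Sycp3 ran against the oocyte markers within oocytes. The Spearman correlation between Sycp3 and the marker sum was -0.58 (r -0.46) over 16 control and -0.68 (r -0.68) over 16 doxorubicin oocytes. Without the 2 oocytes farthest from the median sum, it was -0.64 and -0.61. In doxorubicin oocytes the 4 with the lowest marker sums had Sycp3 between 1182 and 1422 CPM, and the 4 with the highest had 624 to 1240 CPM. The 4 lowest include doxorubicin oocytes 11 and 12, which held granulosa markers at 2891 and 2253 CPM. In control oocytes the ranges were 619 to 1081 and 418 to 800 CPM, and they overlapped. Syce1 had rho of -0.47 and -0.49 in the same groups (-0.25 and -0.31 without the 2 farthest), Syce2 0.44 and 0.05, and Smc1b 0.14 and 0.16. The marker sum itself took up to 7.01% of a library's counts, and its part in the relation was not tested.

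The genes most like Sycp3 over the 32 oocytes, among 7005 with a median of at least 20 CPM, were Rbm3 (rho 0.75), Tbp (0.74), Prps1 (0.68), Ndfip1 (0.62) and Hmgb1 (0.62). For Syce1 they were Pnisr (0.74), Ncor1 (0.67), Mrnip (0.67), Rpl10l (0.66) and Snx6 (0.63). The 2 sets had no gene in common.

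Other genes of meiotic chromosomes were set beside these. In oocytes 0 of the 51 context genes past the filter were 2-fold higher or lower after doxorubicin, beside 6.3% higher and 2.45% lower of all genes. The lists were those of other synaptonemal complex genes, cohesin subunits and regulators, recombination, telomere attachment and meiotic entry. The nearest past the filter were Hfm1 at 0.97, Prdm9 at -0.94 and Majin at 0.83. Leaving out 1 oocyte took them as far as 1.38 (control oocyte 16), -1.17 (doxorubicin oocyte 14) and 1.03 (control oocyte 16). Below the filter, Spo11 at 1.95, Dmc1 at -1.26 and Spata22 at -1.10 passed 2-fold. Their counts in control and doxorubicin oocytes were 79 and 278, 534 and 203, and 228 and 97. In control oocytes against control granulosa cells, 15 of 19 recombination genes were at least 2-fold higher in oocytes and 0 lower. Of all genes 29% were higher and 31.3% lower, and the median log2 ratio of the recombination genes was 3.63. Here too, genes that passed the filter only through their oocyte level had to differ, so the count is a description. Of 5 shared cohesin subunits 0 were higher and 2 lower, with a median of -0.97.

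Among shared cohesin subunits, Smc1a had 98.1 CPM in control oocytes and 159 CPM in control granulosa cells, and Smc3, the common SMC arm, had 97.0 and 134 CPM. Stag2 had 32.1 and 65.6 CPM. Among regulators of cohesin, securin (Pttg1) had 259 CPM, separase (Espl1), the protease that opens the ring, 231 CPM, and sororin (Cdca5), which stabilises it, 179 CPM in control oocytes. Their ratios after doxorubicin were 0.22, 0.15 and 0.13, within the quartiles of all genes.

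Of the recombination genes with the highest level per length, Mnd1, which acts in strand invasion, had 81.5 CPM and Zcwpw1, a reader of marks laid by PRDM9, 158 CPM in control oocytes. The row 4930432K21Rik (Brme1, a partner of HSF2BP) had 113 CPM in controls against 66.1 CPM after the drug, a ratio of -0.77 (-0.81 to -0.74). Of the genes that attach telomeres to the nuclear envelope, Sun1 had 76.6 and 60.1 CPM, Ccdc155 (Kash5) 35.6 and 28.0 CPM, and Terb1 21.2 and 15.3 CPM in control and doxorubicin oocytes. Their ratios were -0.35, -0.34 and -0.47, and that of Ccdc155 was -0.04 without control oocyte 16. Of the 5 genes of this list past the filter 4 were below 0, while Majin, in the complex that tethers telomeres, went from 4.78 to 8.50 CPM, a ratio of 0.83. Dazl, an RNA-binding protein of germ cells, had 385 and 380 CPM, Rbm46, another, 60.8 and 70.7 CPM, and Gm4969 (Meiosin), which acts with STRA8 at meiotic entry, 40.6 and 50.8 CPM. Trip13, which strips HORMA-domain proteins from axes, had 30.9 and 30.7 CPM.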

How the data were processed

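Estimated counts, deposited by the authors as a gene by cell table, were rounded here, since 32.3% of nonzero values are not whole (tolerance 1e-06). Per the labels' protocols, a full-length cDNA kit for low input was used. Partek, Bowtie2, HISAT2, DESeq2 and the build mm10 are named in the submitters' processing notes without versions or roles. All 61 columns were mapped by name. Sequencing depth limits low genes as the intervals show.

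CPM was computed from the totals of all rows. Log2 ratios of group CPM used a floor of 3 counts, exact conditional binomial (Clopper-Pearson) intervals and no test. Group CPM has exact Poisson intervals. The filter was 5 CPM in either group and called means 2-fold. Lengths, positions and overlaps came from GENCODE M21, matched by symbol. The genes named are the 10 members and the 3 of each context list with the highest CPM per kb in control oocytes. Added to these were any context gene past the filter and 2-fold in oocytes, and the 5 most like each of the 2 highest members. Rad21, Rad21l, Stag1, Syce3, 4930447C04Rik, Chpt1, Majin, Hfm1, Prdm9, Spo11, Dmc1, Spata22 and the single libraries were added after their values were seen. The members and lists were chosen with earlier results of these data known. Sgo2b and Stra8 are not analysed here. The ratio script was tested on simulated data. Alternatives were other ways to combine cells, scaling with edgeR 4.0.16 and DESeq2 1.42.0 in R 4.3.3, other filters, thinning to 5000000 counts, marker limits, other detection limits, exon lengths and leaving out each cell. Python 3.11.15, numpy 2.4.6, pandas 2.3.3 and scipy 1.17.1 were used.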

Additional observations from a re-analysis of the deposited data

How the results depend on the processing

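For doxorubicin over control oocytes the median log2 ratio of the members was 0.107 as an equal-weight mean of cells, 0.093 from the cells' medians, 0.101 after thinning, -0.016 with a filter of 1 CPM and -0.030 with none, and 0.020 to 0.141 with 1 cell left out. For doxorubicin over control granulosa cells it was 0.523, 0.186 and 0.583 under the first 3 of these, 1.13 with a filter of 1 CPM, 1.11 among libraries with their own markers highest, -0.69 among libraries with few markers of the other type, and 0.427 to 1.71 with 1 cell left out. For control oocytes over control granulosa cells it was 4.74 from the cells' medians, 3.20 with no filter, 6.01 and 6.05 in the same marker subsets, and 2.94 to 5.78 with 1 cell left out. In granulosa libraries the rho of summed members with oocyte markers went from 0.526 to 0.292 in controls and from 0.901 to 0.845 after doxorubicin without the 2 farthest libraries. Between the oocyte groups no member was called, so no called ratio could change sign. Uncalled ratios did so with 1 cell left out. Sycp1 ran from -0.26 to 0.15, Hormad1 from -0.25 to 0.13 and Smc1b from -0.05 to 0.04. Against granulosa cells called ratios changed sign. For doxorubicin over control granulosa cells, Smc1b was 2.22 from the cells' medians, 1.62 with own markers highest and 2.29 without control granulosa cell 8. Sycp1 was -4.55, -3.51 (few other markers) and -4.83 (without doxorubicin granulosa cell 1), Syce2 -0.63 and -1.05, and Hormad2 5.65 without control granulosa cell 8. For oocytes over granulosa cells Hormad2 was 0.22, 5.81, 6.21 and 6.25 under the corresponding settings. With 1 cell left out, these called values ran up to 3.35 for Sycp1 and down to -9.35 for Hormad2 and -2.05 for Smc1b in the granulosa contrast, and down to -4.01 for Hormad2 in the other. The causes were not tested. Of 120 shares of cells under other limits, 7 left their interval. No paired analysis was possible because each sample is 1 cell and no number in the labels pairs cells across groups.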
